A study of Mus musculus with 4 samples.

Results

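The tissue described here is a ring of brain tissue around fibrotic tissue at 7 days post-injury (dpi), after photothrombotic (PT) injury of the mouse cortex. It was measured by spatial transcriptomics on Visium slides, on which each printed spot captures the RNA of a small tissue area that can hold several cells of different types. The ring was chosen by position and by the level of Col1a1, which encodes a chain of the collagen I that fibroblasts deposit in scar. Spots with at least 5 Col1a1 UMIs (unique molecular identifiers, 1 per captured RNA molecule) per 10000 formed the core. Spots under 1 Col1a1 UMI per 10000 that lay 1 to 3 steps of the hexagonal spot grid from a core spot formed the ring, and spots under 1 per 10000 that lay 6 or more steps from any core spot of the slice served as distant tissue. Of the 9340 spots over tissue in the series, 232 were ring spots at 7 dpi, 116 in each of 2 slices, out of 1925 spots over tissue in that capture area.

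Dead tissue in the brain is cleared by phagocytes, which are the resident microglia together with macrophages that enter from the blood and the meninges. These cells take up myelin and cell debris, digest it in lysosomes, and store or export the cholesterol that is released. Astrocytes next to a lesion raise intermediate filament genes and form a border between the damaged and the surviving tissue, and fibroblasts fill the damaged centre with collagen.

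The study followed fibroblasts and immune cells through recovery from brain injury, and its design text gives 1 mouse for each slice. The 2 slices at 7 dpi and the 2 slices at 21 dpi used here came from wild-type (WT) mice with PT injury. The study's methods describe this injury as white light over the somatosensory cortex after injection of the dye Rose Bengal, which closes the illuminated vessels. No uninjured slice entered a comparison, so distant tissue is tissue of the same injured brain. The methods give C57BL/6 as the usual background and mice of both sexes, and the labels give neither age nor sex for single slices.

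The slices at 7 dpi are called slice 1 and slice 2, and each pair of values below gives slice 1 first. The core was small in slice 1, with 112 spots, and large in slice 2, with 392. In slice 1 some core spots formed a separate patch near the top edge of the tissue, apart from the main core. Part of the ring of slice 1 surrounded this patch, and whether the patch belongs to the lesion was not tested. In slice 2 core spots also ran in a narrow strip along 1 tissue edge, joined to the main core and with ring spots beside it. Whether this strip belongs to the lesion was not tested either. The distant tissue held 415 and 184 spots, and a further 111 and 74 spots under 1 Col1a1 UMI per 10000 lay at steps 4 and 5. Ring spots had a median of 11659.5 and 15361 UMIs per spot against 17708 and 18556.5 in distant spots, and the whole ring gave 1528149 and 1835611 UMIs. Mitochondrial RNA made up 6.67% and 9.01% of the UMIs in the ring, 6.41% and 7.34% in the core and 10.2% and 12.8% in distant tissue. Depth and mitochondrial share thus moved with the ring. Counts of genes for spots of at least 5000 UMIs are given in the section on processing. Ring spots were still shallower there, with medians of 14577 and 15571.5 UMIs against 17578 and 18556.5 in distant spots. That setting aside, the part of depth and mitochondrial share in the differences below was not tested.

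Col1a1 itself was used by the rule, so its levels are a description. Over all ring spots it stood at 0.340 and 0.365 UMIs per 10000, against 0.200 and 0.186 in distant tissue and 14.4 and 30.6 in the core. Of the 246 and 258 spots that lay at steps 1 to 3, 116 in each slice were under 1 UMI per 10000, the highest at 0.9985 and 0.9885. The other 130 and 142 spots were left out of the ring, the lowest at 1.015 and 1.001. Core spots began at 5.013 and 5.029, and the highest spots below them held 4.954 and 4.941. A spot at the median depth of step 1 in slice 1, which was 4287 UMIs, could hold up to 7.00 Col1a1 UMIs per 10000 and still show none, so single shallow spots next to the core cannot be called free of Col1a1. In slice 2 the same limit was 2.51 UMIs per 10000.

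The labels give the tissue as brain and title the slices as cortex, while the distant areas also held RNA of deeper structures. The summed hippocampus genes lay above the ring in distant tissue of both slices, the summed choroid plexus and thalamus genes only in slice 1. Levels of genes are given below as CPM, the UMIs of a gene per 1000000 UMIs of the summed spots. The summed level of 5 choroid plexus genes was 349 and 389 in the ring and 9899 and 116 in distant tissue (CPM). Hippocampus genes summed to 86.4 and 63.7 in the ring and 214 and 137 in distant tissue, and thalamus genes to 122 and 92.1 in the ring and 369 and 51.3 in distant tissue. Ring and distant tissue therefore differed in anatomy as well as in distance from the core. The comparison of ring with distant tissue was also made in part of the ring and distant spots of each slice. These were the spots below the slice's median share of choroid plexus, hippocampus, thalamus and striatum genes. This alternative was chosen after seeing the data and is called anatomy-restricted below. It left 91 and 38 ring spots and 175 and 112 distant spots. In slice 2 the summed striatum genes were also higher in the ring (129 against 89.6 CPM), like those of choroid plexus and thalamus. The setting thus acted differently in the 2 slices. Genes of cortical layers did not enter the setting. Deep cortical layer genes summed to 198 and 246 in the ring and 389 and 522 in distant tissue (CPM). Upper cortical layer genes summed to 191 and 263 in the ring and 160 and 266 in distant tissue. Whether ring and distant spots were alike in anatomy under the setting, cortical depth included, was not tested.

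**Figure D1:**
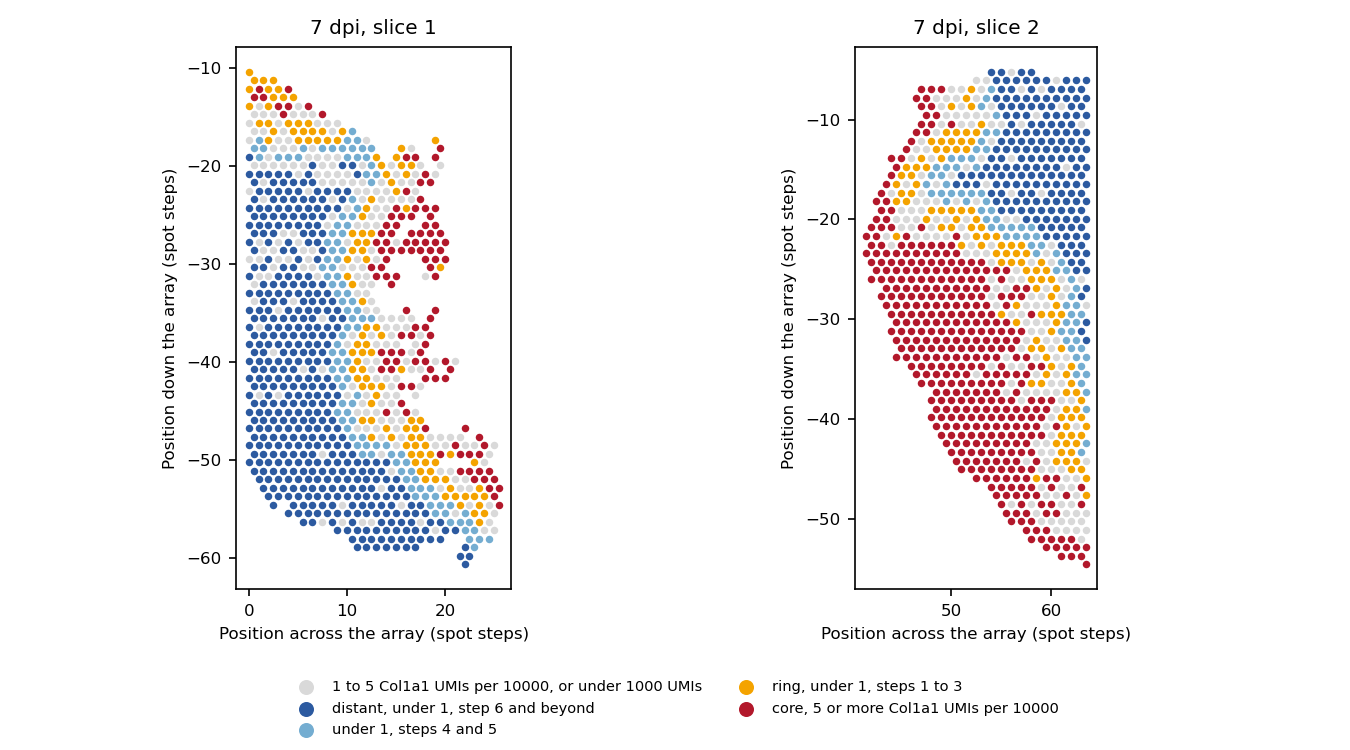
Map of the 2 slices at 7 dpi, with 1 dot for each spot over tissue at its place on the hexagonal grid (axes in spot positions), coloured as core (red), ring (orange), steps 4 and 5 (light blue), distant tissue (dark blue) or in neither (grey, 1 to 5 Col1a1 UMIs per 10000 or under 1000 UMIs). The 116 ring spots of each slice line a core of 112 spots in slice 1 and of 392 spots in slice 2, with distant tissue of 415 and 184 spots beyond. In slice 1 some core spots, with ring spots around them, form a separate patch near the top of the slice.

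The first question was which RNAs set the ring apart from distant tissue. Summed over the ring and over the distant tissue of each slice and tested with edgeR's quasi-likelihood test with the slice as a block, 2313 of 12804 genes were higher in the ring (18.1% of the genes tested) and 2077 were lower (16.2%), at a Benjamini-Hochberg adjusted p under 0.05. The median log2 fold change over all genes was -0.03. In what follows a value with ± is a log2 fold change, ring over distant unless stated, with its SE, and genes called higher or lower passed this test. The SE uses a spread that edgeR shares across genes, and it can be smaller than the gap between the 2 slices. Genes of phagocytes, lysosomes, lipid handling, antigen presentation, the interferon response and cell division were higher, while genes of myelin and synapses were lower. In the anatomy-restricted spots 719 of 11710 genes were higher (6.14%) and 83 were lower (0.709%), with 38 of the 116 ring spots of slice 2 left. Leaving out 1 slice of 7 dpi leaves a single pair of sums, so those fits also held the 21 dpi slices, which gave the spread, and the lone slice is assumed to vary like them. Without slice 1, 609 of 13673 genes were higher (4.45%) and 171 lower (1.25%), and without slice 2, 929 of 13764 were higher (6.75%) and 482 lower (3.5%). DESeq2 called 8.04% of the 12804 genes higher and 4.3% lower, and edgeR without the slice block 7.22% and 1.73%. Counts of list members under these settings, below, are to be read beside these shares. The gene lists were chosen with earlier results of these data known, so counts of their members, in the main fit too, are a description. In bulk sums of this kind, fewer cells of a type and less RNA per cell cannot be told apart.

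The 10 genes with the largest increase, under the rule for named genes, are all genes that macrophages or microglia are known to express. Mmp12, which encodes macrophage metalloelastase, led with 321 and 661 CPM in the ring and 24.2 and 8.02 in distant tissue, in slices 1 and 2 (log2 fold change 4.71 ± 0.24 (SE), edgeR adjusted p = 1.6e-18). Spp1, the gene of the secreted glycoprotein osteopontin, was far more abundant, with 6486 and 4036 CPM in the ring and 447 and 129.8 in distant tissue (log2 fold change 4.43 ± 0.19 (SE), edgeR adjusted p = 3.1e-20). The rule kept only genes with the same sign in both slices and took the largest changes. That the ring lay above distant tissue in both slices for these genes is therefore a description. Single spots varied widely around these sums. In the ring of slice 1, Spp1 ranged from 0 to 375 UMIs per 10000 with a median of 21.0, and in slice 2 from 0 to 362 with a median of 21.4. In distant spots the medians were 2.94 and 0.546.

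Receptors for modified lipoproteins and lipids were among these genes. Msr1, the class A scavenger receptor, stood at 91.6 and 93.2 CPM in the ring and 6.27 and 2.29 in distant tissue (log2 fold change 4.33 ± 0.23), and Cd36, the class B scavenger receptor and fatty acid transporter, at 35.3 and 76.3 in the ring against 4.67 and 1.15 (3.93 ± 0.33). Cd5l, a secreted macrophage protein tied to lipid handling, reached 129 and 121 in the ring against 9.95 and 4.58 (4.07 ± 0.20). Hmox1, the haem-degrading enzyme haem oxygenase 1, stood at 198 and 205 in the ring against 17.7 and 6.87 (4.0 ± 0.18). At least 1 Hmox1 UMI was seen in 46.6% and 50.9% of ring spots and in 26.3% and 10.3% of distant spots, which had more UMIs each. The remaining members were Gpnmb (4.06 ± 0.19), a membrane glycoprotein of phagocytes, Lgals3 (3.84 ± 0.19), the glycan-binding protein galectin 3, and the leukocyte receptors Lilr4b (3.83 ± 0.30) and Lilrb4a (3.71 ± 0.20). All 10 had an edgeR adjusted p of 3.8e-12 or below.

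Disease-associated microglia genes, a set of genes known to be raised in microglia that ingest debris, were higher in the ring for all 18 members tested (median log2 fold change 2.73). Apoe, the main lipid carrier of the brain, had the highest mean level over the ring and distant sums. It stood at 12841 and 10107 CPM in the ring and 4810.0 and 3784 in distant tissue (log2 fold change 1.45 ± 0.16 (SE), edgeR adjusted p = 1.4e-09). Trem2, a lipid-sensing receptor of microglia, stood at 828 and 658 in the ring against 162 and 88.2 (2.64 ± 0.13), next to its signalling adaptor Tyrobp at 1902 and 1349 in the ring against 338 and 172 (2.76 ± 0.14). The smallest change was that of Axl, a receptor for dying cells, at 0.72 ± 0.16 (edgeR adjusted p = 0.00037). In the anatomy-restricted spots 17 of the 18 disease-associated microglia genes remained higher.

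The lysosome genes were higher in the ring for all 16 members tested (median 2.14), and 5 of them are also members of the preceding list or of the microglia list below. Ctsd, the aspartic protease cathepsin D, was the most abundant with 14492 and 10163 CPM in the ring and 2729 and 1348 in distant tissue (log2 fold change 2.69 ± 0.17 (SE), edgeR adjusted p = 5e-16). Ctsb, the cysteine protease cathepsin B, stood at 5175 and 4489 in the ring against 1165 and 967 (log2 fold change 2.22 ± 0.15 (SE), edgeR adjusted p = 5.6e-15). For both proteases either ring lay far above either distant area. The saposin precursor Psap, which activates lipid-degrading enzymes, changed least, with 2033 and 1859 in the ring against 1321 and 1207 (log2 fold change 0.66 ± 0.14 (SE), edgeR adjusted p = 0.00021). Lamp1, a main protein of the lysosomal membrane, changed by 0.76 ± 0.12, the growth factor progranulin, Grn, by 2.54 ± 0.13 and the hexosaminidase Hexa by 2.19 ± 0.12. Of these lysosome genes 14 remained higher in the anatomy-restricted spots.

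Ctsd is shown with the 250 bases before its start because it was the most abundant lysosome gene and its promoter held the E-box CACGTG, the core of the element that lysosome-regulating factors of the TFEB family bind. The sequence is RefSeq's for GRCm38.p6, chr7:142387828-142388077, minus strand, written 5′ to 3′ along the gene, with the matches in capitals. Both strands were searched, and the letters read the same on both.

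Ctsd: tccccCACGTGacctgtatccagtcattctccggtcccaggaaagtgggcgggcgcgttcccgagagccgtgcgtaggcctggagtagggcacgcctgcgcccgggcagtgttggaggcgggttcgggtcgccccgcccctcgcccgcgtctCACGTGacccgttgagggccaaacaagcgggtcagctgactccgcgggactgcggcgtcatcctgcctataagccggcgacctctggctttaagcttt

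Of the 16 lysosome genes 13 had a promoter entry, and 4 of these (30.8%: Lamp1, Lgmn, Ctsa and Ctsd) held CACGTG, as did 6.86% of all 27025 genes with promoters of the same length. A match is a description of letters and does not show that a factor was bound.

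Lipid efflux and storage genes were higher for 9 of 11 members (median 1.45). Of these members Apoe and Lpl also belong to the disease-associated microglia list and Npc2 to the lysosome list. Lpl, the enzyme that releases fatty acids from lipoproteins, stood at 681 and 528 CPM in the ring and 74.1 and 32.9 in distant tissue (log2 fold change 3.58 ± 0.14 (SE), edgeR adjusted p = 5.8e-21), and Npc2, which carries cholesterol inside the lysosome, at 537 and 486 in the ring against 174 and 118 (1.86 ± 0.12). Plin2, the coat protein of lipid droplets, reached 427 and 515 in the ring against 50.1 and 27.8 (log2 fold change 3.61 ± 0.16 (SE), edgeR adjusted p = 3.1e-20). Of the cholesterol exporters Abca1 changed by 2.23 ± 0.12 and Abcg1 by 1.24 ± 0.14. Ch25h, which makes 25-hydroxycholesterol, changed by 3.17 ± 0.19, and the cholesterol-esterifying enzyme Soat1 by 1.17 ± 0.17. The phospholipid transfer protein Pltp (-0.19 ± 0.18, edgeR adjusted p = 0.43) and the sterol-sensing nuclear receptor Nr1h3 (0.76 ± 0.48, edgeR adjusted p = 0.24) did not pass the test.

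Homeostatic microglia genes, the genes that mark resting microglia, were higher too, for 11 of 12 members (median 1.59). Fcrls, an Fc receptor-like protein of microglia, stood at 787 and 533 CPM in the ring and 122 and 70.5 in distant tissue (log2 fold change 2.83 ± 0.12 (SE), edgeR adjusted p = 2.3e-20) and Olfml3, a secreted matrix protein, at 446 and 290.4 in the ring against 122 and 65.9 (2.02 ± 0.12). The purinergic receptor P2ry12, by which resting microglia sense ATP, was raised least of those that passed (109 and 58.3 in the ring against 52.5 and 44.7, log2 fold change 0.80 ± 0.17 (SE), edgeR adjusted p = 0.00021). Siglech, a sialic acid-binding receptor, did not pass (0.05 ± 0.21, edgeR adjusted p = 0.87). The ring thus held more RNA of both the homeostatic and the disease-associated list.

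Of 8 border-associated macrophage genes 4 passed the low-count filter, and these 4 were higher. A gene could pass this filter on its ring sums alone, which favours low genes that are high in the ring. Distant tissue of slice 2 held only 6 UMIs each of Pf4 and Folr2. That all 4 were higher is therefore a description. The scavenger receptor Stab1 stood at 222 and 133 CPM in the ring and 29.1 and 18.0 in distant tissue (log2 fold change 2.95 ± 0.15 (SE), edgeR adjusted p = 1.3e-18), the chemokine Pf4 at 54.3 and 59.9 in the ring against 10.2 and 1.72 (3.20 ± 0.30) and the folate receptor Folr2 at 26.2 and 22.3 in the ring against 6.27 and 1.72 (2.59 ± 0.34). The defining markers Mrc1, Cd163, Lyve1 and Cbr2 were too low to test. Over the whole list the summed level was 323 and 228 in the ring and 61.2 and 30.4 in distant tissue (CPM). The monocyte list summed to 118 and 114 in the ring and 16.1 and 3.72 in distant tissue, with 4 of 6 members, Ccr2, Ly6c2, Plac8 and Chil3, under the filter. Most of its ring sum came from the other members, Ms4a7 with 101 and 108 UMIs in the ring and Arg1 with 32 and 84. The shares of microglia and of macrophages from elsewhere in the ring were not tested.

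Complement genes were higher for 9 of 12 members (median 2.51). The 3 chains of C1q, which tags debris and synapses for uptake, were all higher: C1qa stood at 2487 and 1876 CPM in the ring and 493 and 289 in distant tissue (log2 fold change 2.55 ± 0.14 (SE), edgeR adjusted p = 3.1e-17), C1qb changed by 2.50 ± 0.14 and C1qc by 2.52 ± 0.14. The receptors for the cleaved fragments, C3ar1 (3.39 ± 0.15) and C5ar1 (3.30 ± 0.28), and the subunits of complement receptor 3, Itgam (2.60 ± 0.16) and Itgb2 (2.60 ± 0.17), were higher. The central component C3 was low in either area, with 44.5 and 18.0 in the ring against 6.88 and 7.16 (2.21 ± 0.30). C4b, which astrocytes also make, did not pass, with 178 and 127 in the ring against 141 and 145 (0.12 ± 0.13, edgeR adjusted p = 0.54).

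Among myeloid chemokines and growth factors 8 of 11 were higher and 1 lower. Ccl4, a chemokine that draws leukocytes, stood at 70.0 and 79.0 CPM in the ring and 9.21 and 6.59 in distant tissue (log2 fold change 3.22 ± 0.22 (SE), edgeR adjusted p = 4.6e-15), and the related Ccl3 changed by 3.27 ± 0.24. Csf1, a survival factor of microglia and macrophages, stood at 129.6 and 69.7 in the ring against 40.3 and 29.2 (1.54 ± 0.16). Ccl2, the main monocyte-attracting chemokine, was at 45.8 and 14.7 in the ring against 4.67 and 0.859 (3.47 ± 0.34), and the distant sum of slice 2 held 3 UMIs of it. Cx3cl1, which neurons make and whose receptor Cx3cr1 sits on microglia, ran the other way: the ligand was at 157 and 224 in the ring against 306 and 439 (log2 fold change -0.93 ± 0.12 (SE), edgeR adjusted p = 3.3e-08), the receptor at 244 and 167 in the ring against 52.2 and 39.8 (log2 fold change 2.19 ± 0.13 (SE), edgeR adjusted p = 2.2e-16). Il34 (-0.59 ± 0.29, edgeR adjusted p = 0.12), the other ligand of the Csf1 receptor, and Cxcl12 (-0.48 ± 0.20, edgeR adjusted p = 0.057) did not pass.

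MHC class I genes, whose products show peptides to CD8 T cells, were higher for all 10 members (median 1.53). The shared light chain B2m stood at 2153 and 1302 CPM in the ring and 751 and 373 in distant tissue (log2 fold change 1.69 ± 0.14 (SE), edgeR adjusted p = 7.4e-13). The heavy chains H2-K1 and H2-D1 changed by 1.84 ± 0.12 and 1.53 ± 0.12. MHC class II genes, which present to CD4 T cells, were higher for all 6 tested but stayed low: H2-DMa reached 41.9 and 37.0 in the ring against 22.6 and 16.6, H2-Ab1 28.1 and 29.4 in the ring against 8.72 and 2.58 and H2-DMb1 28.8 and 18.5 in the ring against 7.00 and 4.01. Without slice 1 5 of 10 MHC class I genes and 2 of 6 MHC class II genes were higher. Of 9 T cell genes 8 were under the low-count filter, and the list summed to 14.4 and 19.6 in the ring and 17.6 and 34.7 in distant tissue (CPM).

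Interferon-stimulated genes were higher for 14 of 16 members tested (median 1.30). Ifi27l2a, a small membrane protein gene that interferon induces, stood at 674 and 217 CPM in the ring and 205 and 43.8 in distant tissue (log2 fold change 2.00 ± 0.13 (SE), edgeR adjusted p = 9.7e-16). Bst2, or tetherin, which holds budding virus at the cell surface, stood at 266 and 196 in the ring against 90.7 and 31.5 (2.04 ± 0.15), and the antiviral membrane protein Ifitm3 at 213 and 163 in the ring against 87.5 and 59.0 (1.41 ± 0.13). Levels were higher in slice 1 than in slice 2 in ring and distant tissue alike for these 3 genes, and the ring was above distant tissue in both. Isg15, a ubiquitin-like modifier, changed by 1.68 ± 0.17 and the transcription factor Irf7 by 1.62 ± 0.19. Stat2 (0.34 ± 0.22, edgeR adjusted p = 0.24) and Ifi44 (0.57 ± 0.35, edgeR adjusted p = 0.22) did not pass. Without the slice block 3 of these 16 interferon-stimulated genes passed. Without slice 1, 7 did. Rsad2, the antiviral enzyme viperin, had 54.7% of its ring UMIs of slice 2 in 1 spot, and the interferon-induced chemokine Cxcl10 had 61.8%, so their slice 2 values rest on that spot. The same spot held 35.1% of the slice 2 ring UMIs of Ifit3, 32.6% of those of Ifit1 and 26.3% of those of Usp18.

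The promoters of 3 interferon-stimulated genes that were higher in both slices are shown because they hold the interferon-stimulated response element, here the letters TTTC, then NN, then TTTC, searched on both strands. Capitals mark the matches, which read GAAA, NN, GAAA where the other strand holds them, and matches that overlap run together. Each sequence is the 250 bases before the gene's start in RefSeq's GRCm38.p6, written 5′ to 3′ along the gene: Bst2 at chr8:71537473-71537722 (minus strand), Isg15 at chr4:156200819-156201068 (minus strand) and Ifit3 at chr19:34583279-34583528 (plus strand).

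Bst2: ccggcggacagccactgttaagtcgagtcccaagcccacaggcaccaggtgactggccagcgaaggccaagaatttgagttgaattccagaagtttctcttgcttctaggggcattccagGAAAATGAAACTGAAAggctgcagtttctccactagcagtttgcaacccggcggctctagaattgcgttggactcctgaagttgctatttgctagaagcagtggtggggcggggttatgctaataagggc

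Isg15: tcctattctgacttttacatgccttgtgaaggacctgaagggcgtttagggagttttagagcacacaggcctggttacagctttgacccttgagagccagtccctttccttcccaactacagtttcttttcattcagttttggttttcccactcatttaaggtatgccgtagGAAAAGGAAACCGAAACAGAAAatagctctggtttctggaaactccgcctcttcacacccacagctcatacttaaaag

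Ifit3: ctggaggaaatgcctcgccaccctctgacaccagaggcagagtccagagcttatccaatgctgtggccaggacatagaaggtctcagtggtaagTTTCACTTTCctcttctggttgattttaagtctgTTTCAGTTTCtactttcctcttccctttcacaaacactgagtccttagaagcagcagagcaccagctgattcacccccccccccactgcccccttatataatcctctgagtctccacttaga

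Of the 17 genes of the list 12 had a promoter entry, and 6 of these (50%) held the motif in a promoter, against 3.46% of all 27025 genes with an entry. In Isg15 the 3 overlapping matches began 78 bases before the start, and in Bst2 the 2 began 130 bases before it. The ring levels of genes with it were not alike, as Bst2 stood at 266 and Isg15 at 109.9 (CPM) in slice 1. Stat2 held the motif as well and did not pass the test.

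Cell cycle genes were higher for all 12 members (median 2.59). Mki67, which marks dividing cells, stood at 67.4 and 63.2 CPM in the ring and 12.3 and 6.30 in distant tissue (log2 fold change 2.82 ± 0.22 (SE), edgeR adjusted p = 5.2e-13), Top2a, which untangles replicated DNA, at 56.3 and 58.3 in the ring against 12.3 and 7.16 (2.56 ± 0.23), and Racgap1, needed for cell separation, at 34.0 and 33.8 in the ring against 9.71 and 9.17 (1.87 ± 0.26). At least 1 Mki67 UMI was seen in 35.3% and 38.8% of ring spots and in 17.8% and 9.24% of distant spots. A spot does not show which of its cells divided. Without slice 1 7 of 12 cell cycle genes were higher.

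**Figure D2:**
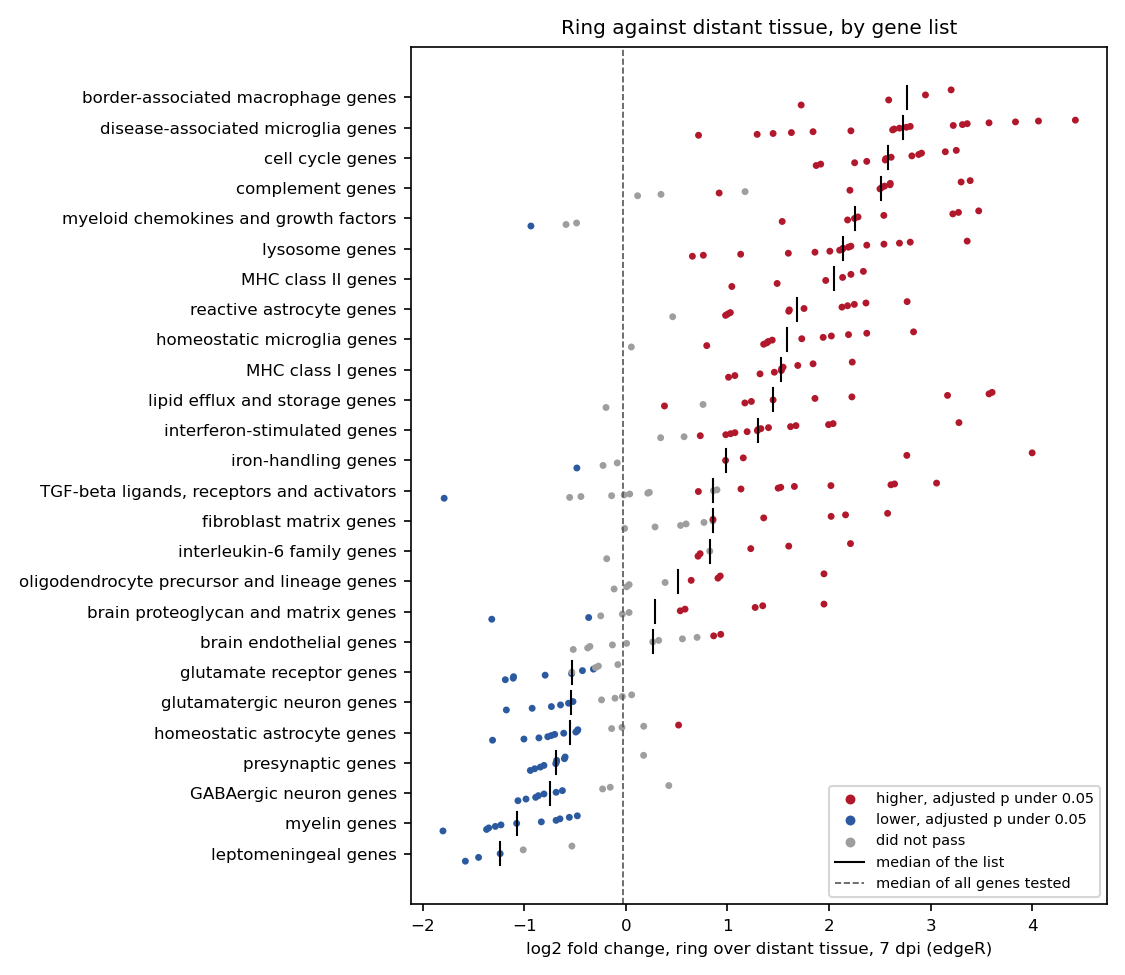
Log2 fold change of ring over distant tissue at 7 dpi (horizontal axis, edgeR on sums of 2 slices) for each tested member of 26 gene lists (vertical axis), 1 point per gene, red where higher and blue where lower at an adjusted p under 0.05 and grey otherwise; a black bar marks the median of a list and the dashed line the median of all genes. Phagocyte, lysosome and cell cycle lists lie to the right of 0, with medians of 2.73, 2.14 and 2.59, and the myelin list lies to the left at -1.07.

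Reactive astrocyte genes were higher for 11 of 12 members tested (median 1.68). Gfap, the astrocyte intermediate filament, stood at 1178 and 871 CPM in the ring and 557 and 479.7 in distant tissue (log2 fold change 1.00 ± 0.13 (SE), edgeR adjusted p = 6.3e-08). Vim, a filament protein shared with macrophages and fibroblasts, was at 1222 and 802 in the ring against 267 and 202 (log2 fold change 2.13 ± 0.13 (SE), edgeR adjusted p = 2.4e-16), and the protease inhibitor Serpina3n at 452 and 295 in the ring against 109 and 115 (log2 fold change 1.75 ± 0.13 (SE), edgeR adjusted p = 1.4e-13). Lcn2, a secreted iron-siderophore binder, changed by 2.77 ± 0.23, the hyaluronan receptor Cd44 by 2.25 ± 0.18 and the protease inhibitor Timp1 by 2.36 ± 0.24. Aspg, an asparaginase, did not pass (0.46 ± 0.42, edgeR adjusted p = 0.44). Cd44, Timp1 and Vim are also expressed by other cells of a lesion. Osmr, counted here, is also counted among the interleukin-6 family genes below. Cxcl10, whose slice 2 ring value rests on 1 spot, is a member too. In the anatomy-restricted spots 8 of these reactive astrocyte genes were higher, and in the fit without slice 1 of 7 dpi 5 of 13 were.

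Homeostatic astrocyte genes went the other way for 10 of 14 members (median -0.55). Slc1a2, the main glutamate transporter, stood at 1234 and 1124 CPM in the ring and 2024 and 1892 in distant tissue (log2 fold change -0.70 ± 0.14 (SE), edgeR adjusted p = 9.1e-05), the glycolytic enzyme Aldoc at 479.7 and 514 in the ring against 831 and 858 (-0.73 ± 0.12) and Glul, which makes glutamine, at 530.0 and 489 in the ring against 726 and 739 (-0.49 ± 0.12). Aldh1l1, a folate enzyme of astrocytes, was the 1 member that was higher (0.52 ± 0.15, edgeR adjusted p = 0.0065). The water channel Aqp4 did not pass (0.18 ± 0.12, edgeR adjusted p = 0.27), nor did the glutamate transporter Slc1a3 (-0.04 ± 0.12, edgeR adjusted p = 0.85). Of these 14 homeostatic astrocyte genes 0 were lower in the anatomy-restricted spots, where 0.709% of all genes were, 0 without slice 1 (1.25% of all genes) and 4 without slice 2 (3.5%).

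TGF-beta ligands, receptors and activators, the pathway that drives matrix production in fibroblasts, were higher for 9 of 19 members and lower for 1 (median 0.86). Of the ligands, Tgfb1 stood at 42.5 and 41.4 CPM in the ring and 8.35 and 5.44 in distant tissue (log2 fold change 2.61 ± 0.26 (SE), edgeR adjusted p = 2.6e-10), while Tgfb2 (-0.55 ± 0.27, edgeR adjusted p = 0.12) and Tgfb3 (0.90 ± 0.41, edgeR adjusted p = 0.085) did not pass. Both signalling receptors were higher, Tgfbr1 at 152 and 108 in the ring against 55.0 and 30.4 (1.66 ± 0.15) and Tgfbr2 by 1.5 ± 0.16. The co-receptor Tgfbr3 was lower (-1.79 ± 0.50), but the ring sums held only 2 and 7 UMIs of it, against 91 and 27 in distant tissue. Of the subunits of integrins that free the latent ligand, Itgav stood at 166 and 155 in the ring against 71.4 and 78.8 (1.13 ± 0.13) and Itgb1 at 159 and 159.6 in the ring against 58.5 and 54.7 (1.53 ± 0.13), and Itgb8 did not pass (-0.14 ± 0.17, edgeR adjusted p = 0.57). Nrros, which holds latent TGF-beta on microglia, changed by 2.02 ± 0.28 and the activator Thbs1 by 2.65 ± 0.44. The inhibitory targets Smad7 (0.23 ± 0.19, edgeR adjusted p = 0.39) and Skil (0.04 ± 0.16, edgeR adjusted p = 0.89) did not pass. Without slice 1 5 of 19 TGF-beta ligands, receptors and activators were higher.

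Interleukin-6 family genes, which signal through the shared receptor Il6st and the factor Stat3, were higher for 5 of 7 members tested. Il6st stood at 69.4 and 59.9 CPM in the ring and 42.5 and 38.4 in distant tissue (log2 fold change 0.71 ± 0.16 (SE), edgeR adjusted p = 0.00073) and Stat3 at 66.7 and 63.7 in the ring against 43.5 and 36.9 (0.73 ± 0.16). The oncostatin receptor Osmr changed by 1.60 ± 0.31 and the feedback inhibitor Socs3 by 2.21 ± 0.41. The receptor Lifr did not pass, with 28.8 and 28.3 in the ring against 37.0 and 29.8 (-0.19 ± 0.21, edgeR adjusted p = 0.53). The ligands Il6, Lif, Osm and Clcf1 were too low to test. Of these interleukin-6 family genes DESeq2 called 1, and 0 were called without slice 1.

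Brain proteoglycan and matrix genes were mixed, with 5 of 10 higher and 2 lower (median 0.28). The most abundant, the receptor-type proteoglycan Ptprz1, did not differ beyond its error (217 and 177 in the ring against 256 and 148, 0.03 ± 0.12, edgeR adjusted p = 0.87), nor did neuroglycan C, Cspg5 (-0.25 ± 0.12, edgeR adjusted p = 0.11). Neurocan, Ncan, was higher (217 and 193 in the ring against 144 and 146, 0.54 ± 0.12), as were versican, Vcan (1.27 ± 0.22), tenascin C, Tnc (1.35 ± 0.33) and tenascin R, Tnr (0.58 ± 0.13). The largest change was that of Cspg4, the NG2 proteoglycan of oligodendrocyte precursors and pericytes, at 75.9 and 87.7 in the ring against 25.2 and 17.5 (log2 fold change 1.95 ± 0.18 (SE), edgeR adjusted p = 2.9e-11). Brevican, Bcan (-0.37 ± 0.12), and the node of Ranvier protein Hapln2 (-1.32 ± 0.23) were lower. Of these brain proteoglycan and matrix genes 2 of 11 were higher without slice 1 and 2 of 11 without slice 2.

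Fibroblast matrix genes were higher for 5 of 11 members tested (median 0.86), and the collagens among them travel with Col1a1, so they are not independent of how the spots were chosen. Sparc, a collagen-binding protein that microglia and endothelium also make, stood at 733 and 549 CPM in the ring and 479 and 266 in distant tissue (0.86 ± 0.12), and fibronectin, Fn1, at 444 and 299.6 in the ring against 70.6 and 56.4 (log2 fold change 2.58 ± 0.12 (SE), edgeR adjusted p = 4.3e-19). Col3a1 was at 105 and 98.6 in the ring against 32.1 and 19.2 (2.02 ± 0.17). The fibroblast matrix genes summed to between 1022 and 2140 CPM at the 3 steps of the 2 rings, and to 7143 and 11068 in the core. Cthrc1, a marker of scar-forming fibroblasts, did not pass (21.6 and 14.7 in the ring against 17.3 and 8.59, 0.54 ± 0.29, edgeR adjusted p = 0.15). Without slice 2 3 of 12 fibroblast matrix genes were higher.

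Leptomeningeal genes were lower for 3 of 5 members tested (median -1.24): Ptgds, which makes prostaglandin D2, stood at 183 and 508 in the ring against 1052 and 871 (-1.58 ± 0.19), the growth factor Igf2 at 16.4 and 23.4 in the ring against 75.4 and 28.9 (-1.24 ± 0.25) and Myoc at 7.20 and 8.17 in the ring against 28.8 and 15.8 (-1.45 ± 0.32). Distant tissue of slice 1 held choroid plexus, which also expresses Ptgds and Igf2, and 1 of 3 leptomeningeal genes was lower in the anatomy-restricted spots. None of the leptomeningeal genes was called lower by DESeq2, without the slice block or without slice 1. Summed, these genes stood at 1694.5 and 2437 CPM in the core and at 280 and 578 at step 1. Of the brain endothelial genes 2 of 11 were higher, beside 18.1% of all genes, the tight junction gene Cldn5 (118 and 85.0 in the ring against 65.2 and 48.7, 0.87 ± 0.15) and Vwf (0.93 ± 0.25). The glucose transporter Slc2a1 (-0.13 ± 0.15, edgeR adjusted p = 0.53) and the surface protein Ly6c1 (-0.35 ± 0.17, edgeR adjusted p = 0.1) did not pass. Without slice 1 0 of 11 brain endothelial genes were higher.

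Iron-handling genes were split. Ftl1, the light chain of ferritin, stood at 4214 and 5026 CPM in the ring and 830.3 and 575 in distant tissue (log2 fold change 2.77 ± 0.17 (SE), edgeR adjusted p = 1.8e-16), whereas Fth1, the heavy chain, did not pass (4900.0 and 5113 in the ring against 5913 and 4982, -0.08 ± 0.15, edgeR adjusted p = 0.72). The transferrin gene Trf did not pass either (-0.22 ± 0.12, edgeR adjusted p = 0.17). The iron exporter Slc40a1 was higher (1.16 ± 0.28) and the transferrin receptor Tfrc lower (-0.48 ± 0.17). Without slice 1 2 of 7 iron-handling genes were higher and 0 of 7 lower. Haemoglobin genes, a measure of red cells, summed to 296 and 340.5 in the ring and 323 and 358 in distant tissue (CPM), and 0 of 4 tested passed. None had an unadjusted p under 0.05, and DESeq2 called 0. In the ring of slice 2 the richest spot held 246 of the 321 Hbb-bs UMIs and 107 of the 135 Hba-a1 UMIs. The haemoglobin sum of that ring thus rests largely on 1 spot, and ring against distant tissue without it was not tested.

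Among genes that were lower in the ring were all 11 myelin genes (median -1.07). Mbp, myelin basic protein, stood at 2125 and 2534 CPM in the ring and 4966 and 5033 in distant tissue (log2 fold change -1.07 ± 0.15 (SE), edgeR adjusted p = 2.8e-07), and Mobp at 453 and 495 in the ring against 1291 and 1182 (-1.35 ± 0.13). Mal, a lipid raft protein of compact myelin, changed most (-1.80 ± 0.12). Of the 11 myelin genes 2 were lower in the anatomy-restricted spots, 1 without slice 1 and 6 without slice 2, and the cause of the lost calls was not tested. Of the oligodendrocyte precursor and lineage genes 4 of 8 were higher and 0 lower, among them Enpp6 (93.6 and 75.7 in the ring against 46.1 and 45.0, log2 fold change 0.93 ± 0.16 (SE), edgeR adjusted p = 9.8e-06) and Gpr17 (0.91 ± 0.16), which mark cells about to form myelin. Cspg4, given above among the proteoglycans, is counted in this list as well. The lineage genes Bcas1 (-0.11 ± 0.11, edgeR adjusted p = 0.48) and Olig1 (0.03 ± 0.12, edgeR adjusted p = 0.86) did not pass. Without slice 1 1 of 8 oligodendrocyte precursor and lineage genes was higher.

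Of the presynaptic genes 9 of 10 were lower (median -0.69): Snap25, part of the vesicle fusion machinery, stood at 1058 and 1666 CPM in the ring and 1531 and 3105 in distant tissue (log2 fold change -0.68 ± 0.14 (SE), edgeR adjusted p = 0.00023), the calcium sensor Syt1 at 367 and 544 in the ring against 596 and 1067 (-0.81 ± 0.13) and the vesicle protein Vamp2 at 369.7 and 498 in the ring against 674 and 991 (-0.90 ± 0.13). GABAergic neuron genes were lower for 7 of 10, with Pvalb at 125 and 194 in the ring against 229 and 426 (-0.98 ± 0.12), Gad1, which makes GABA, by -1.06 ± 0.12 and the peptide gene Sst by -0.86 ± 0.12. Glutamatergic neuron genes were lower for 6 of 10, with the vesicular transporter Slc17a7 at 283 and 358 in the ring against 444 and 658 (-0.73 ± 0.12) and the kinase Camk2a by -0.64 ± 0.11, while Nrgn did not pass (829.8 and 1228 in the ring against 1086 and 1139, -0.11 ± 0.14, edgeR adjusted p = 0.59).

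Glutamate receptor genes were lower for 7 of 11: Grin1, the obligate NMDA receptor subunit, stood at 89.7 and 138 in the ring against 209.6 and 319 (log2 fold change -1.19 ± 0.12 (SE), edgeR adjusted p = 5.1e-10), and the AMPA receptor subunits Gria1 and Gria2 changed by -1.11 ± 0.13 and -0.32 ± 0.12. In the anatomy-restricted spots 0 of 10 presynaptic genes, 0 of 10 GABAergic neuron genes, 1 of 10 glutamatergic neuron genes and 1 of 11 glutamate receptor genes were lower. Without slice 1 and without slice 2, 1 and 1 of 10 presynaptic genes, 2 and 2 of 10 GABAergic neuron genes, 1 and 1 of 10 glutamatergic neuron genes and 1 and 3 of 11 glutamate receptor genes were lower. The levels of distant tissue itself differed between slices for these genes, as Snap25 shows with 1531 and 3105 CPM.

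The 10 genes with the largest decrease included genes of particular brain regions. Kl, the gene of the choroid plexus protein klotho, stood at 9.16 and 1.09 CPM in the ring and 90.8 and 2.29 in distant tissue (log2 fold change -3.05 ± 0.34 (SE), edgeR adjusted p = 2.1e-09), so its change rests on slice 1. Ntng1 (8.51 and 8.17 in the ring against 77.8 and 26.6, -2.50 ± 0.27), a netrin of thalamic axons, and Ramp3 (-2.01 ± 0.29), a receptor partner protein, were also highest in distant tissue of slice 1. Spink8 (15.1 and 8.17 in the ring against 37.6 and 82.2, -2.31 ± 0.28), a hippocampal gene, and Rgs14 (18.3 and 17.4 in the ring against 23.1 and 140.3, -1.97 ± 0.30), which marks a hippocampal subfield, were highest in distant tissue of slice 2. The other 5 were Wipf3 (43.8 and 45.2 in the ring against 164 and 254, -2.18 ± 0.15), Lmo3 (-2.13 ± 0.22), Cabp7 (-1.99 ± 0.22), Clmn (-1.84 ± 0.19) and Lingo3 (-1.82 ± 0.25). Anatomy and distance from the core cannot be told apart in these values.

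Levels changed with distance from the core. Spp1 was highest in the core or next to it and stood at 14094, 7015 and 2868 (CPM) at steps 1, 2 and 3 of slice 1 and at 5607, 3900.3 and 3392 in slice 2, and at 388 and 57.8 at 8 steps and more. Mmp12 was higher at step 1, with 571 and 800.3, than in the core itself, with 429 and 312. Gfap followed another course, with its maximum beyond the ring: it stood at 523 and 484 at step 1, at 1502 and 1164 at step 3, and peaked with 1558 at step 4 of slice 1 and 1709.5 at step 5 of slice 2. In the core Spp1 stood at 14015 and 14000.0. These profiles are descriptions of sums over 30 to 48 ring spots a step.

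Disease-associated microglia genes summed to 69663, 58711 and 33432 CPM at steps 1, 2 and 3 of slice 1, so they fell by step 3 there, but to 40046, 37815 and 38089 in slice 2, where they were still at 36933 at step 4 and fell to 10970 at steps 6 and 7. Reactive astrocyte genes had their highest sum at step 3 of slice 1 (3937) and at step 5 of slice 2 (3494). Homeostatic astrocyte genes summed to 2571 and 3617 at step 1 and to 5940 and 4063 at step 3. Myelin genes went from 4394 and 4663 at step 1 to 8910 and 8953 at step 3, and stood at 14939 and 13089 at 8 steps and more. Presynaptic genes summed to 1584 at step 1 and 3374 at step 3 of slice 1, whereas in slice 2 they were 3957 and 3655, with no order. Interferon and antigen presentation genes were higher in the core than at any ring step. Interferon-stimulated genes summed to 2384 and 2588 in the core and at most 2207 and 1343.5 at a ring step. For MHC class I genes these values were 4715 and 5382 against 4349 and 2513, and for MHC class II genes 275 and 442 against 195 and 180.

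**Figure D3:**
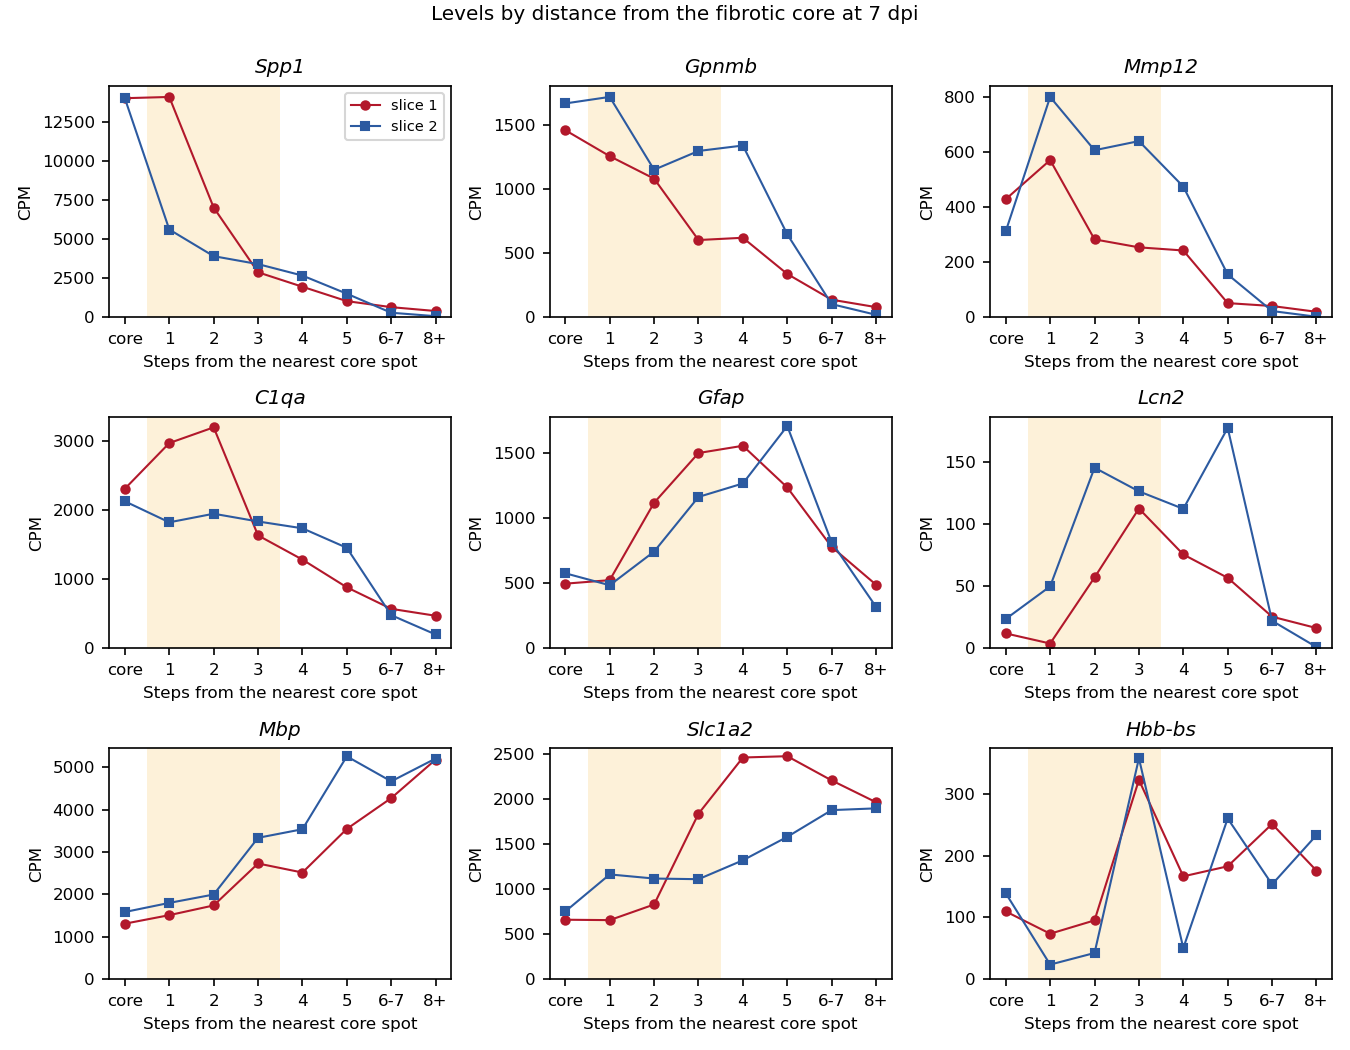
Levels in CPM (vertical axes) by distance from the core in hexagonal steps (horizontal axes), 1 line for each of the 2 slices at 7 dpi, with the ring at steps 1 to 3. The ring is shaded. Spp1 falls from 14094 and 5607 at step 1 to 2868 and 3392 at step 3. Gfap peaks at step 4 in slice 1 and step 5 in slice 2, and the Hbb-bs level at step 3 of slice 2 rests on 1 spot.

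Tested within the ring, step 1 differed from step 3 for 4 genes that were higher (0.048% of 8332 tested) and 7 that were lower (0.084%). The sums at step 1 held 271536 and 382361 UMIs. Of the 4 genes that were higher at step 1, Mmp13, a collagenase, stood at 55.2 and 57.5 CPM at step 1 and 6.07 and 11.4 at step 3 (log2 fold change 2.67 ± 0.51 (SE), edgeR adjusted p = 0.00034), with 60% and 59.1% of its step 1 UMIs in 1 spot of each slice. Mgp, matrix Gla protein, stood at 243 and 105 CPM at step 1 and 48.6 and 39.1 at step 3 (log2 fold change 1.94 ± 0.36 (SE), edgeR adjusted p = 0.00012), and Col3a1, which travels with the Col1a1 used to set the steps, at 276 and 165 CPM at step 1 and 59.2 and 63.1 at step 3 (1.84 ± 0.34). The macrophage gene Cd5l stood at 273 and 146 CPM at step 1 and 45.6 and 98.5 at step 3 (1.55 ± 0.34). DESeq2 called 0 genes here, with 50 at an unadjusted p under 0.05, and without the slice block 1 gene passed, so these calls rest on the edgeR fit with the block.

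Of the 7 genes that were lower at step 1, Lcn2 stood at 3.68 and 49.7 CPM at step 1 and 112 and 126 at step 3 (log2 fold change -2.11 ± 0.42 (SE), edgeR adjusted p = 0.00092), with a single UMI at step 1 of slice 1. Gfap (-1.35 ± 0.33, edgeR adjusted p = 0.04), the complement gene C4b (-1.38 ± 0.34, edgeR adjusted p = 0.048) and the myelin gene Mal (-1.41 ± 0.35, edgeR adjusted p = 0.048) were lower as well. The other 3 were haemoglobin genes, Hbb-bs, Hba-a1 and Hba-a2. In slice 2 they rested on the richest spot: 1 spot held 246 of the 284 Hbb-bs UMIs of step 3. In slice 1 the richest spot held 81 of the 213 Hbb-bs UMIs of step 3. Without the spot richest in haemoglobin of each sum, Hbb-bs in slice 1 was at 203 CPM at step 3 and 67.6 at step 1. Hba-a1 was then at 43.0 and 15.9 in slice 1, and Hba-a2 at 30.7 and 27.8. With the spot richest in haemoglobin left out of each sum, Hbb-bs changed by -1.44 and no longer passed, and Hba-a2 turned to 0.30.

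The second question was whether the ring at 7 dpi differed from distant tissue by more, or by less, than the ring at 21 dpi did. By the same rule the 21 dpi slices held 228 ring spots (156 and 72) and 759 distant spots. The test of the difference between the differences called 268 of 13331 genes with a higher ring difference at 7 dpi (2.01%) and 141 with a lower one (1.06%). Of the lysosome genes 14 of 16 passed in the first direction, and of the disease-associated microglia genes 12 of 18. The 2 time points lie on separate capture areas, so time and capture area cannot be told apart, and the count depended on single slices, with 131 genes without slice 1 of 7 dpi and 1373 without slice 2 of 21 dpi.

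Spp1 stood at 6486 and 4036 CPM in the ring at 7 dpi and 246 and 165 at 21 dpi, and in distant tissue at 447 and 129.8 at 7 dpi and 70.7 and 36.6 at 21 dpi (difference of log2 fold changes 2.51 ± 0.29, edgeR adjusted p = 0.0031). Both 21 dpi rings were still above their distant tissue. Ctsb stood at 5175 and 4489 CPM in the ring at 7 dpi and 1144 and 1060.1 at 21 dpi (1.80 ± 0.18, edgeR adjusted p = 0.002), where distant tissue was at 1165 and 967 at 7 dpi and 838 and 767 at 21 dpi. Plin2, of the lipid droplet coat, stood at 427 and 515 CPM in the ring at 7 dpi and 20.9 and 23.6 at 21 dpi (2.53 ± 0.41, edgeR adjusted p = 0.009). Of the TGF-beta list Tgfbr1 (1.42 ± 0.25), Itgav (1.2 ± 0.24) and Itgb1 (1.16 ± 0.24) passed, and the other 16 tested did not. Complement genes passed for 7 of 12 members, homeostatic microglia genes for 6 of 12, lipid efflux and storage genes for 6 of 11, cell cycle genes for 4 of 12 and MHC class I genes for 3 of 10. Without slice 1 of 7 dpi, 9 of 16 lysosome genes and 11 of 18 disease-associated microglia genes passed, and 0 of 13 complement genes, 1 of 12 homeostatic microglia genes, 0 of 10 MHC class I genes and 1 of 12 cell cycle genes did. With DESeq2 0 of 12 cell cycle genes and 0 of 19 TGF-beta ligands, receptors and activators passed.

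The 5 genes with the largest positive difference were Msr1, Hmox1, Tuba1c, Ch25h and Slc37a2. Msr1 stood at 91.6 and 93.2 CPM in the ring at 7 dpi and 2.84 and 0 at 21 dpi (3.69 ± 0.84, edgeR adjusted p = 0.036) and Hmox1 at 198 and 205 CPM in the ring at 7 dpi and 5.22 and 10.6 at 21 dpi (3.54 ± 0.60, edgeR adjusted p = 0.011). In distant tissue at 21 dpi Msr1 stood at 1.57 and 0.305 and Hmox1 at 5.99 and 2.44, so Hmox1 was not above distant tissue in slice 1 of that time. Tuba1c, an alpha tubulin, stood at 70.0 and 57.7 CPM in the ring at 7 dpi and 7.11 and 4.72 at 21 dpi, Ch25h at 92.9 and 81.7 CPM in the ring at 7 dpi and 5.69 and 1.18 at 21 dpi and Slc37a2, a sugar phosphate transporter of macrophages, at 87.0 and 60.5 CPM in the ring at 7 dpi and 9.48 and 4.72 at 21 dpi. Tuba1c had log2 ratios of ring to distant tissue of 2.04 and 3.71 in the 7 dpi slices. In the 21 dpi slices its ratios were -1.10 and 1.95. The 1.95 came from 4 UMIs in the ring and 4 in distant tissue, and it lay near the 2.04. The later slices thus disagreed for Tuba1c. Ch25h had ratios of 3.08 and 3.18 at the earlier time, then 0.40 and -0.37. Slc37a2 had 2.57 and 3.06, then -0.28 and 0.73. Each ring sum at 21 dpi held at most 20 UMIs of each of these 5 genes, so their 21 dpi levels are imprecise.

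In the other direction, 2 of 6 leptomeningeal genes passed. Ptgds stood at 183 and 508 CPM in the ring at 7 dpi and 1994 and 2412 at 21 dpi, and in distant tissue at 1052 and 871 at 7 dpi and 1628 and 1139 at 21 dpi (-2.23 ± 0.40, edgeR adjusted p = 0.014). It was thus lower in the ring than in distant tissue at 7 dpi and higher at 21 dpi, in both slices of each time. Myoc stood at 7.20 and 8.17 CPM in the ring at 7 dpi and 44.6 and 40.1 at 21 dpi, and in distant tissue at 28.8 and 15.8 at 7 dpi and 7.13 and 12.8 at 21 dpi (-3.61 ± 0.46, edgeR adjusted p = 0.0044). The other genes with the largest negative difference were Gm2115, Ramp3, Ntng1 and Wipf3, of which the last 3 were among the genes most decreased in the ring at 7 dpi. Distant tissue at 21 dpi held its own anatomy, with choroid plexus genes summing to 16968 CPM in slice 1 and 373 in slice 2, and the part of anatomy in these differences was not tested.

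Several lists that were higher in the ring at 7 dpi had no member whose difference passed: 0 of 16 interferon-stimulated genes, 0 of 13 reactive astrocyte genes and 0 of 6 MHC class II genes, with medians of 0.76, 0.48 and 1.32. In edgeR 5, 2 and 5 of them had an unadjusted p under 0.05, and DESeq2 called 0 in each list. Without slice 2 of 21 dpi, in a fit with a single slice at that time, some members of each list passed. More of all genes also passed in that fit than in the main fit. For Gfap the difference was -0.75 ± 0.63 (edgeR adjusted p = 0.57), with 1178 and 871 CPM in the ring at 7 dpi and 461 and 718 at 21 dpi. Ifi27l2a stood at 674 and 217 CPM in the ring at 7 dpi and 34.1 and 36.6 at 21 dpi, and its difference of 1.21 ± 0.44 did not pass (edgeR adjusted p = 0.16). The 21 dpi slices disagreed for some of these genes, as Gfap was at 352 and 68.0 in their distant tissue, and a p that misses the threshold does not show that the ring differences at the 2 times were alike.

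**Figure D4:**
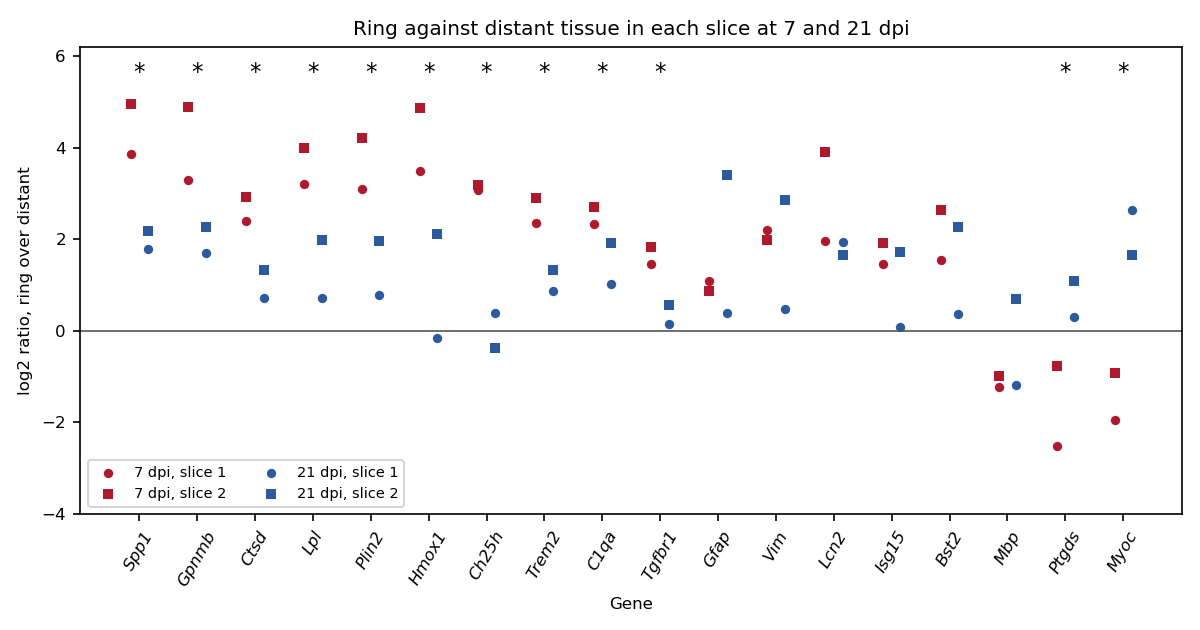
Log2 ratio of ring over distant tissue (vertical axis) for 18 genes (horizontal axis), 1 point for each slice, red at 7 dpi and blue at 21 dpi, circles for slice 1 and squares for slice 2, with an asterisk where the difference between the times had an edgeR adjusted p under 0.05. Spp1 lies at 3.86 and 4.96 at 7 dpi and at 1.80 and 2.17 at 21 dpi, and Ptgds and Myoc lie below 0 at 7 dpi and above 0 at 21 dpi.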

How the data were processed

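The slices were 10x Genomics Visium libraries of fresh frozen brain. The authors deposited counts of UMIs per gene and spot for each capture area, made with Space Ranger 2.0.0 on mm10 per the submitters' processing notes and the study's methods, with 2 slices on each area. The 2 pieces of tissue on an area were separated by the gaps between their spots, and slices are numbered by spot count. Spots with 1000 UMIs or more were used. Ring, core and distant spots were set as the report states, distances were counted on the hexagonal grid, and UMIs were summed per region and slice, so that the slice, not the spot, was the replicate.

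The sums were tested with edgeR 4.0.16 in R 4.3.3 (TMM, filterByExpr, quasi-likelihood, slice as a block, Benjamini-Hochberg adjusted p under 0.05 over all genes tested). A gene could pass filterByExpr on the sums of 1 region alone, so genes with few UMIs entered more readily where they were high in that region. Fold changes are log2, ring over distant, and each SE was derived from its F statistic. Levels are CPM, UMIs per 1000000 UMIs of the region. The difference between 7 and 21 dpi was an interaction term, and step 1 was tested against step 3 within slices. With 2 slices a group and the slice as a block, p-values rest on how ring differences varied between 2 slices, with the spread shared across genes. The SE of a single gene does not show its own gap between slices. For Mmp12 the log2 ratios of ring to distant were 3.73 in slice 1 and 6.34 in slice 2, with an SE of 0.24. The sums held at least 271536 UMIs at 7 dpi, and counting limits cover counting error only. A limit for a count of 0 uses 3 counts. DESeq2 1.42.0, other filters, other regions and leaving out each slice were alternatives. The fits were also run on simulated data, in which each changed gene had the same effect in both slices of a time. Such data cannot show how the fits treat effects that differ between slices. Tables were made with Python 3.11.15, pandas 2.3.3, numpy 2.4.6 and scipy 1.17.1, and plots with matplotlib 3.10.9.

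Genes were named by rule: the 10 largest changes in each direction past the threshold, with the same sign in both slices and at least 20 CPM, Col1a1 left out; the 3 most abundant members of each list, with other members named beside their counts; and 5 genes in each direction for the other comparisons. Some genes that the rule names are not reported here. The members and the gene lists were chosen with earlier results of these data known. Promoter sequences are RefSeq's for GRCm38.p6. The area with slices at rest and 2 dpi and the area of 21 dpi Cthrc1(creER); R26(DTA) mice entered no comparison.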

Additional observations from a re-analysis of the deposited data

Results flagged for a closer look

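The ring difference at 7 dpi itself differed from that at 21 dpi for 409 genes by the edgeR interaction test. The 10 of them that were named by rule are given here. The difference of log2 fold changes was 3.69 for Msr1, 3.54 for Hmox1, 3.40 for Tuba1c, 3.015 for Ch25h and 2.97 for Slc37a2. It was -3.61 for Myoc, -2.715 for Gm2115, -2.50 for Ramp3, -2.39 for Ntng1 and -2.35 for Wipf3. Time and capture area cannot be told apart in these values. Groups of 2 slices are too small for a test of single outlying slices.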

How the results depend on the processing

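No paired analysis by replicate number was possible because the labels give the slices no numbers; ring and distant tissue were paired by slice in every fit but the one without the slice block. The 2313 higher and 2077 lower genes became 1030 and 550 with DESeq2 and 925 and 222 without the slice block. They became 1275 and 778 with a ring of step 1 and 1269 and 820 with spots free of Col1a1 UMIs. In the spots below each slice's median share of subcortical genes, a setting chosen after seeing the data, they were 719 and 83. Some other cuts of the spots changed the counts less. They were 2265 and 1957 with spots of at least 5000 UMIs, 1930 and 1566 in interior spots, and 2090 and 1630 with steps 2 and 3. With a core from 10 Col1a1 UMIs per 10000 they were 2232 and 1967, and with distant tissue from 8 steps 1871 and 1499. Leaving out 1 slice of 7 dpi, in fits that also held the 21 dpi slices and took the spread from them, gave 609 to 929 higher and 171 to 482 lower genes, beside 1812 and 1369 with all 4 slices in the fit. The 409 genes whose ring difference differed between 7 and 21 dpi became 1005 with no low-count filter, 114 with DESeq2 and 700 with a ring of steps 2 and 3, and 131 to 1373 when 1 slice was left out. The 11 genes that differed between step 1 and step 3 became 0 with DESeq2 (edgeR had 470 and DESeq2 50 at an unadjusted p under 0.05) and 1 without the block. The cause of these changes was not tested, beyond the fewer spots or slices that some settings hold. Of 112 named genes, 48 kept their direction and their side of the threshold in every alternative run. A sign turned for 10 genes (values are log2 fold changes, ring over distant unless stated). In spots below the median share of myelin genes, a setting that selects on myelin itself, Bcas1 was at 0.82, Fth1 at 0.50, Slc2a1 at 0.43 and Trf at 0.98. With fewer subcortical genes Bcas1 was at 0.44, Igf2 at 0.0023, Lifr at 0.022, Ptprz1 at -0.014 and Trf at 0.079. With no Col1a1 UMI Lifr was at 0.097, Nrgn at 0.24 and Olig1 at -0.18. With no TMM Olig1 was at -0.00083 and Ptprz1 at -0.0015, and with a ring of step 1 at -0.24 and -0.37. Olig1 was at -0.039 with distant tissue from 8 steps. Ptprz1 was at -0.0053 without the slice block, -0.018 with a core from 10 Col1a1 UMIs per 10000 and -0.017 in interior spots. Without the spot richest in haemoglobin of each sum, also chosen after seeing the data, Hba-a2 was at 0.30 between step 1 and step 3. Leaving out 1 slice gave -0.17 to 0.045 for Fth1, -0.29 to 0.12 for Nrgn, -0.062 to 0.17 for Olig1, -0.14 to 0.26 for Ptprz1 and -0.34 to 0.097 for Slc2a1.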

Other observations

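Neuropeptide and secreted activity genes were lower in the ring for 8 of 11 members tested (median -0.55), among them the peptide gene Cck (log2 fold change -0.42 ± 0.13, edgeR adjusted p = 0.01), while Npy did not pass (0.11 ± 0.12, edgeR adjusted p = 0.52). In the anatomy-restricted spots 0 of 11 neuropeptide and secreted activity genes were lower, and 0 of 13 without slice 1. Immediate early genes, which neurons raise with activity, were higher for 2 of 12 and lower for 2 (median -0.34), beside 18.1% of all genes that were higher and 16.2% that were lower. Hypoxia-inducible genes were higher for 3 of 9 and lower for 1 (median 0.25), and heat shock and cell stress genes were higher for 2 of 9 and lower for 2 (median 0.10). Pericyte and smooth muscle genes were higher for 2 of 8 (median 0.71). Of the neutrophil genes 6 of 7 were under the low-count filter, and the list summed to 51.0 and 36.0 in the ring and 21.5 and 9.17 in distant tissue (CPM).

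Several interferon genes had their richest ring spot in common. In slice 1, 1 spot at step 3 was the richest ring spot for 7 of 17 genes, the 16 interferon-stimulated genes of the list and Cxcl10, while holding 1.83% of the ring's UMIs. In slice 2, 1 spot at step 2 was the richest for 10 of these 17 while holding 1.23%. Cxcl10 had 30.4% and 61.8% of its ring UMIs there, and Rsad2 17.7% and 54.7%. The spots were chosen by these values, so they are a description.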
